A study of Mus musculus with 4 samples.

Results

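The surfactant and alveolar type 2 genes are 10 mouse genes taken from the table by name, a list drawn up with earlier results of these data known: the surfactant proteins *Sftpa1*, *Sftpb*, *Sftpc* and *Sftpd*, the lipid and lamellar body genes *Abca3*, *Lamp3*, *Lpcat1*, *Slc34a2* and *Napsa*, and the transcription factor *Etv5*. All 10 were found among the 21462 genes of the deposited table, and all 10 passed the filter on low values (mean of 10 or more). RNA-seq had been made on lung smooth muscle cells of *Tet3* mutant and control C57BL/6 mice, with 2 libraries a group, to ask how loss of TET3, an oxidase of methylated cytosine, alters their transcripts. Mutants carried floxed *Tet3* alleles, a tdTomato reporter and the α-SMA-ERT2Cre transgene, a tamoxifen-inducible Cre under the promoter of the smooth muscle actin gene. Controls lacked the floxed allele and, by the paper's general statement, carried the Cre, the tdTomato reporter or both. Sorting on tdTomato required the reporter in the controls used here as well. Tamoxifen was given in adult life. By the study's figure legends the libraries of a group came from independent animals. The labels give neither age, sex nor batch. Cells had been sorted as tdTomato-positive after a step with beads against CD45 and Ter-119, meant to remove leukocytes and red cells. Beads against epithelial cells were not part of that protocol as stated.

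Alveolar type 2 cells are the cuboidal epithelial cells that make pulmonary surfactant, the film of phospholipid and protein that lowers surface tension in the alveolus. Its hydrophobic proteins SP-B and SP-C are processed from precursors and packed with lipid into lamellar bodies, while SP-A and SP-D are collectins of innate defence. These genes are textbook markers of the epithelium and not of the contractile programme of smooth muscle.

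Deposited values are normalized counts, scaled between libraries by the authors, and their totals ran from 6805272 to 7164573 per library. *Tet3*, the targeted gene, stood at 1847 and 1926 in the controls and at 1534 and 1444 in the mutants. These values also count exons outside the deleted part, and the cause of the level left in the mutants was not tested. Control 2 stood apart in 2 sex-linked genes: the Y-linked *Ddx3y* was at 774 there and at 0 in the other libraries, and *Xist*, expressed from the inactive X chromosome, was at 2 there and at 5214 to 6781 in the others. None of 10 contractile markers of the labelled cell type was at 0 in any library, which held for the marker lists of the other cell types as well.

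Taken as levels per 1000 exon bases, which allows genes to be set side by side, the surfactant genes were among the most abundant transcripts of these sorted cells. *Sftpc* had the highest mean level of 16645 genes ranked, at 910 normalized counts per 1000 exon bases, a rank that rested on control 2, since *Gsn* was the highest gene in each of the other libraries. *Sftpb* ranked 6 with 815, *Sftpa1* ranked 10 with 773 and *Slc34a2* ranked 22 with 681. *Lamp3* with 555, *Lpcat1* with 424, *Sftpd* with 391, *Abca3* with 383, *Napsa* with 294 and *Etv5* with 240 followed, the last at rank 952. Neighbours in this order overlapped over the 4 libraries, whereas the ends did not: *Sftpc* ran from 754 to 1213 and *Etv5* from 118 to 421. For comparison, the smooth muscle actin gene *Acta2* had a mean level of 404 per 1000 exon bases, the actin-binding *Tagln* 292 and the myosin heavy chain *Myh11* 275. The median level of the 10 surfactant and alveolar type 2 genes was 501 and 714 per 1000 exon bases in the controls and 290 and 454 in the mutants, against 115 and 136 and then 202 and 210 for 10 smooth muscle markers.

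All 10 genes had a lower mean log2 level in the *Tet3* mutants than in the controls, with a median log2 fold change of -0.71 against -0.01 over all 16659 genes tested. A fold change below 0 was found in 51.0% of all tested genes. In 9 of 10, all but *Sftpc*, both mutant libraries lay below both control libraries, a separation found in this direction in 19.5% of all tested genes. None of the 10 passed the threshold of 0.05 in limma's moderated test with Benjamini-Hochberg adjustment over all genes, where 0% of all tested genes passed it, although 1112 of them had an unadjusted p below 0.05. Before adjustment, 5 of 10 were lower at p below 0.05 (*Abca3*, *Lamp3*, *Lpcat1*, *Slc34a2* and *Etv5*), against 2.85% of all tested genes lower at that level. That count rested on single libraries: it was 8 without control 1, 0 without control 2, 0 without mutant 1 and 1 without mutant 2. With 2 libraries a group an exact two-sided permutation test of a single gene cannot go below p = 0.333. How this epithelial RNA came to be in the sorted sample was not measured. In bulk libraries such as these, fewer alveolar type 2 cells and less RNA per such cell, among other possible sources of the difference, cannot be told apart.

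**Figure D1:**
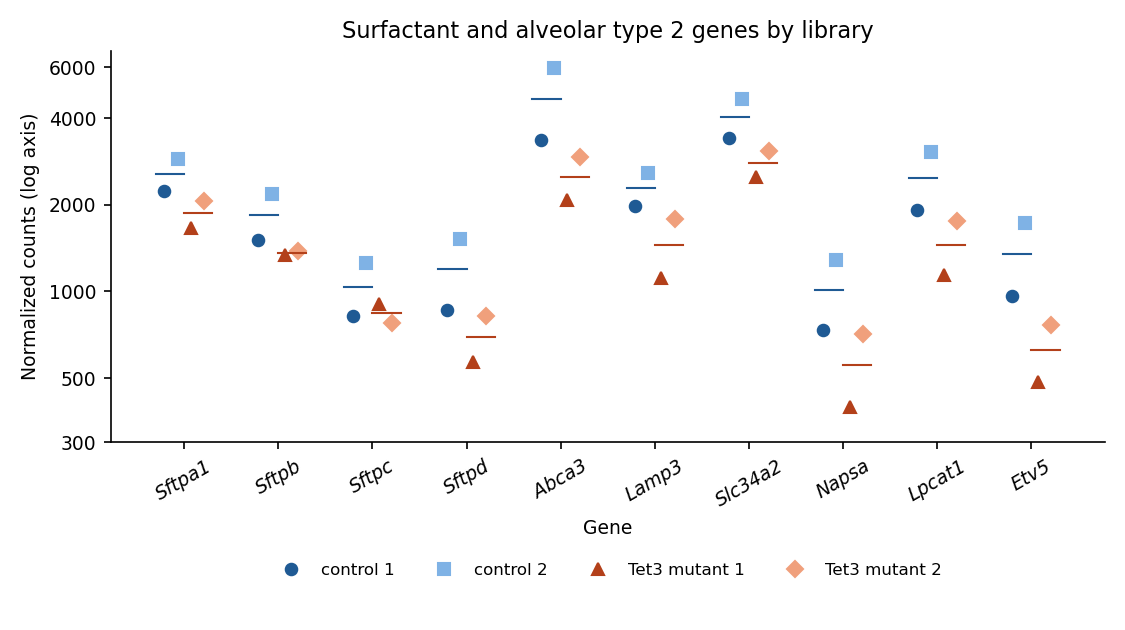
Normalized counts (log axis) of the 10 surfactant and alveolar type 2 genes in the 4 libraries, with a point per library and a bar at each group's mean. Control 2 is the highest library for all 10 genes, and both mutants lie below both controls for all genes but *Sftpc*.

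Among the surfactant proteins, *Sftpa1*, which encodes the collectin SP-A (ENSMUSG00000021789, chr14:41131782-41136452, plus strand, GRCm38), was at 2234 and 2881 normalized counts in the controls and at 1667 and 2065 in the mutants. The mutant libraries lay below the controls without overlap, with a log2 fold change of -0.45 ± 0.18 (SE, limma, adjusted p = 0.681). *Sftpd*, the gene of the other collectin SP-D, lies 35761 bases away on the same chromosome (chr14:41172214-41185149, minus strand) and was at 865 and 1523 in the controls and at 571 and 823 in the mutants. The groups did not overlap here either, but control 1 and mutant 2 differed by little, and the log2 fold change was -0.74 ± 0.32 (limma, adjusted p = 0.681).

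The genes of the hydrophobic proteins showed the smallest differences of the 10. *Sftpb*, whose protein is needed to form lamellar bodies and a working film (chr6:72304610-72314371, plus strand), was at 1512 and 2181 in the controls and at 1336 and 1386 in the mutants. The controls were far more spread than the mutants, and the log2 fold change was -0.42 ± 0.19 (limma, adjusted p = 0.681). *Sftpc*, a defining marker of type 2 cells (chr14:70520949-70524081, minus strand), was at 825 and 1254 in the controls and at 904 and 780 in the mutants. Mutant 1 lay above control 1, so the groups overlapped, and the log2 fold change of -0.28 ± 0.22 (limma, adjusted p = 0.743) turned to 0.025 without control 2.

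The lipid and lamellar body genes differed more. *Abca3* encodes the transporter that loads phospholipid into lamellar bodies (chr17:24351950-24410201, plus strand), and it was at 3360 and 5981 in the controls and at 2080 and 2929 in the mutants. Control 2 stood well above the other 3 libraries, and the log2 fold change was -0.86 ± 0.32 (limma, adjusted p = 0.681). *Abca3* shares 914 exon bases, 9.75% of its own, with *D330041H03Rik* on the opposite strand, and whether strand was used in counting is not given in the sources used here.

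*Lpcat1* encodes the acyltransferase that remodels phosphatidylcholine to the saturated form of surfactant (chr13:73467197-73516422, plus strand). Its values were 1919 and 3041 in the controls and 1143 and 1751 in the mutants, with a log2 fold change of -0.77 ± 0.30 (limma, adjusted p = 0.681). *Lamp3*, a membrane protein of the lamellar body (chr16:19653378-19706375, minus strand), was at 1974 and 2586 in the controls and at 1117 and 1778 in the mutants. Both genes thus had mutant 1 well below the remaining libraries and mutant 2 close to control 1, and for *Lamp3* the log2 fold change was -0.68 ± 0.26 (limma, adjusted p = 0.681).

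*Slc34a2*, the sodium phosphate cotransporter of the type 2 cell's apical membrane (chr5:53038081-53071664, plus strand), was at 3422 and 4664 in the controls and at 2500 and 3072 in the mutants. The groups did not overlap, and the log2 fold change was -0.53 ± 0.19 (limma, adjusted p = 0.681). *Napsa* encodes napsin A, an aspartic protease that takes part in processing pro-SP-B (chr7:44572380-44586862, plus strand), and was at 736 and 1289 in the controls and at 396 and 712 in the mutants. Here mutant 2 lay just under control 1, and the log2 fold change was -0.87 ± 0.38 (limma, adjusted p = 0.681). *Napsa* shares 502 exon bases, 18.9% of its own, with the antisense gene *Gm15396*.

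*Etv5*, an ETS-family transcription factor that maintains the type 2 cell state (chr16:22381309-22439719, minus strand), had the largest difference of the 10. It was at 966 and 1728 in the controls and at 486 and 766 in the mutants, with a log2 fold change of -1.08 ± 0.35 (limma, unadjusted p = 0.0262, adjusted p = 0.681). Both mutants lay clearly below both controls, and the controls themselves differed by 0.84 on the log2 scale.

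The 10 genes moved together from library to library, within groups as well as between them. Control 2 was the highest library for 10 of 10, against 33.2% of all tested genes, and mutant 1 the lowest for 9 of 10, against 23.9%. The full order of control 2, control 1, mutant 2 and mutant 1 held for 9 of 10, against 7.87% of all tested genes. *Sftpc* was the exception in both counts that fell short.

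The controls differed between themselves about as much as mutant 1 differed from control 1. Control 2 exceeded control 1 by a member median of 0.63 on the log2 scale (0.37 in *Sftpa1* to 0.84 in *Etv5*). Mutant 1 lay below control 1 by a median difference of -0.64, but mutant 2 differed from control 1 by a median of only -0.13 (-0.33 to -0.05). Within the mutants, mutant 2 exceeded mutant 1 by a median of 0.51, in 9 of 10 genes. The step from control 1 to control 2 was beyond counting error, for example 0.81 in *Napsa* against a counting error of 0.066. Some smaller steps were about the size of it or less, such as mutant 2 against control 1 in *Napsa* (-0.048, counting error 0.073) and in *Sftpd* (-0.072, counting error 0.068), and mutant 2 against mutant 1 in *Sftpb* (0.053, counting error 0.055). Set against control 2 alone, mutant 1 differed by a median of -1.31 and mutant 2 by -0.74, and the median fold change of -0.71 was -0.39 without control 2, the library that also stood apart in *Ddx3y* and *Xist*. The part of that library's sex-linked difference in the result was not tested.

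**Figure D2:**
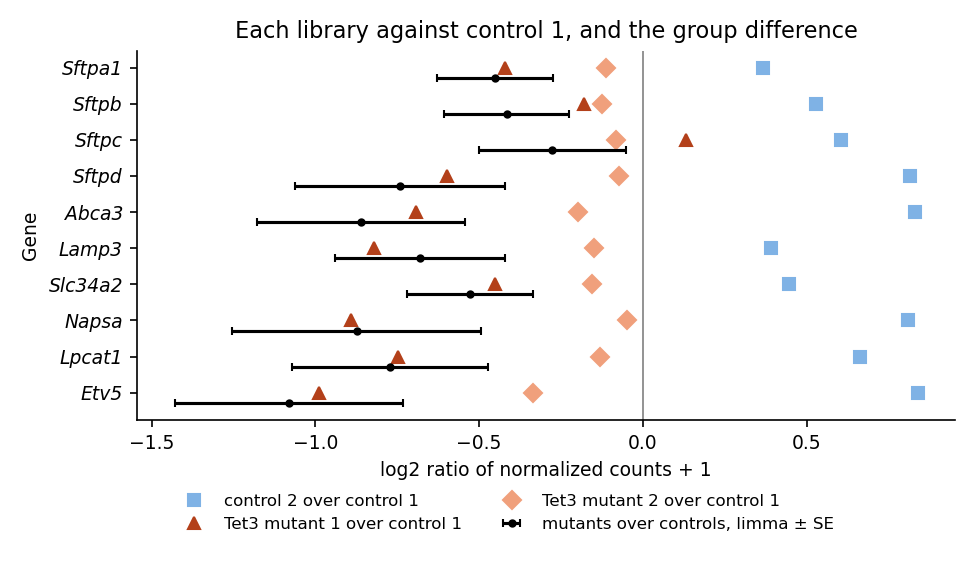
Log2 ratio of each library to control 1 for the 10 surfactant and alveolar type 2 genes. Control 2 lies above 0 for all 10 genes (0.37 to 0.84), mutant 2 slightly below 0 for all 10 (-0.33 to -0.05), and mutant 1 below 0 for all but *Sftpc*.

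Summed over the 10 genes, the levels were 17813 and 27128 normalized counts in the controls and 12200 and 16062 in the mutants, which is 0.254% and 0.379% and then 0.177% and 0.236% of the library. The mutant sums lay below both control sums, with a difference of -0.65 between the group means of their log2. Within that sum the make-up varied little. *Slc34a2* took 17.2% to 20.5% and *Abca3* 17.0% to 22.0% of it, while the share of *Sftpd* lay between 4.68% and 5.61%. The clearest departures were in mutant 1, where the share of *Sftpc* was 7.41% against 4.62% to 4.86% in the other libraries, and where *Napsa* and *Etv5* had their lowest shares, 3.25% and 3.98%. The share of *Sftpb* was also highest there, at 10.95% against 8.04% to 8.63%.

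**Figure D3:**
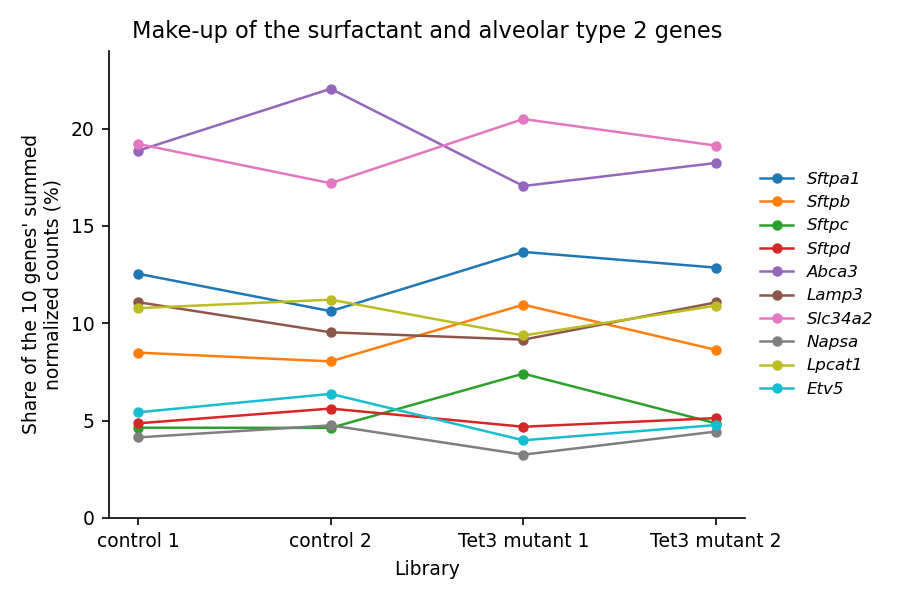
Share (%) of each gene in the summed normalized counts of the 10 genes, by library, with lines joining a gene's points. Most shares stay within a few percentage points, and mutant 1 has the highest *Sftpc* share (7.41%) and the lowest *Etv5* share (3.98%).

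The size of the difference followed the level of the gene. In order of falling level per 1000 exon bases, from *Sftpc* to *Etv5*, the log2 fold changes ran from -0.28 to -1.08, and Spearman's rho between level and fold change was 0.99 across the 10 genes, which share the same 4 libraries and are not independent replicates. Across 16 other markers of type 2 cells rho was 0.20, so the order was not as close there. For the step from control 1 to control 2 the most abundant genes again differed least, with rho of -0.76 across the 10 genes and -0.84 across the 16 other markers.

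The most abundant of these genes lay at the upper end of what any gene reached in these libraries. Division of the deposited values by each library's estimated scaling factor gives estimated reads, and the highest gene of all stood at 902 and 1153 such reads per 1000 exon bases in the controls and at 870 and 896 in the mutants. *Sftpc* itself was at 830 and 1153 in the controls and at 802 and 838 in the mutants. *Malat1*, an abundant nuclear noncoding RNA, was at 827, 835, 819 and 806, and *Gsn*, the gene of the actin-severing protein gelsolin, at 902, 867, 870 and 896, so both came out within a narrow band below 1000 in every library. Values over 1000 were found for 2 genes in control 2, *Sftpc* and *Sftpb* (1053), and for 0 genes in the other libraries. Whether identical reads had been collapsed before counting is not given in the sources used here, and the part of this upper limit in the small differences and in the ranks of *Sftpc*, *Sftpb* and *Sftpa1* was not tested.

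**Figure D4:**
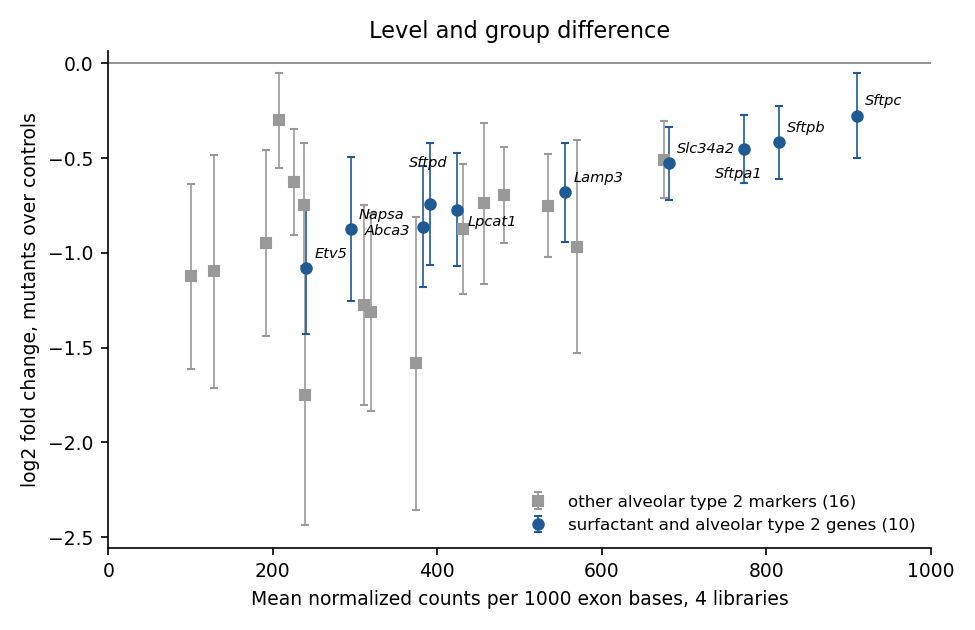
Log2 fold change of mutants over controls (bars, SE from limma) against the mean level in normalized counts per 1000 exon bases, for the 10 surfactant and alveolar type 2 genes (named circles) and 16 other type 2 markers (squares). Among the 10 genes the difference shrinks from *Etv5* (level 240, fold change -1.08) to *Sftpc* (level 910, fold change -0.28), while the squares scatter more widely.

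Of the transcription factors listed for the type 2 programme, 9 of 10 had a fold change below 0 (51.0% of all tested genes). Both mutants lay below both controls in 5 (19.5% of all tested genes) and above both in 1 (19.6%). In limma, 3 were lower and 1 higher at an unadjusted p below 0.05 (2.85% and 3.83% of all tested genes). None passed the adjusted threshold, and the list's median log2 fold change was -0.63. *Nkx2-1*, the homeobox factor that specifies lung epithelium and activates surfactant genes, was at 685 and 1501 in the controls and at 378 and 540 in the mutants (log2 fold change -1.16, limma, unadjusted p = 0.0336). *Klf5* was at 306 and 571 and then at 153 and 228, the same order of libraries as in the surfactant genes. *Cebpd* behaved otherwise within the groups, with 820 and 845 in the controls and 588 and 595 in the mutants, a log2 fold change of -0.49 with both groups tight (limma, unadjusted p = 0.00504). The forkhead factors *Foxa1* (246 and 639, then 169 and 242) and *Foxa2* (219 and 587, then 145 and 246) again had control 2 far above the other libraries. *Sox9*, a factor of distal lung progenitors and of cartilage, was the one higher gene, at 43 and 23 and then at 84 and 83. Of those below 0, *Nr3c1* (2572 and 2011, then 2308 and 2199) had a log2 fold change of only -0.01. In *Gata6* (336 and 591, then 388 and 376) both mutants lay above control 1.

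*Nkx2-1*, *Klf5*, *Foxa1*, *Cebpd* and *Srebf1* had the order of libraries seen in most of the surfactant genes. *Cebpa*, *Foxa2*, *Gata6*, *Nr3c1* and *Sox9* did not. The bases before the RefSeq starts of the surfactant and alveolar type 2 genes were searched for usual letters of NKX2-1, FOXA, C/EBP and ETS factors and for a TATA box. Letters for KLF5 were not searched, and whether any of these factors acts on the genes was not tested. RefSeq promoter windows on GRCm38.p6 were found for 7 of 10 genes, in 8 windows of 250 bases, since *Etv5* has 2 starts. These starts need not be those of the gene positions given above. The window of *Slc34a2*, at chr5:53049103-53049352, lies inside the gene as placed above, as does the second window of *Etv5*. The windows of *Sftpa1*, *Sftpb* and *Lamp3* are shown 5′ to 3′ on the gene's strand because they hold most of the matches, with matched letters in capitals: *Sftpa1* at chr14:41131538-41131787 (plus strand), *Sftpb* at chr6:72304360-72304609 (plus strand) and *Lamp3* at chr16:19706366-19706615 (minus strand).
Sftpa1: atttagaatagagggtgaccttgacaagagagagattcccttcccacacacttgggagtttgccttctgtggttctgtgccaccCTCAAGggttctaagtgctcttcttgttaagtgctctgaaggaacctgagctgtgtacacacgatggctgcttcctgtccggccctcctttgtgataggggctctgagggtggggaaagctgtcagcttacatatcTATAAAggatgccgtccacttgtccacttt
Sftpb: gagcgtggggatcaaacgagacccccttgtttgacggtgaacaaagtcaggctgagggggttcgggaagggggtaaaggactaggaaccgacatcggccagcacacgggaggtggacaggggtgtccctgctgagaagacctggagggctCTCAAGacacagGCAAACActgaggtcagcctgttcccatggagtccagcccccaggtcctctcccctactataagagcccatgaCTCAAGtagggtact
Lamp3: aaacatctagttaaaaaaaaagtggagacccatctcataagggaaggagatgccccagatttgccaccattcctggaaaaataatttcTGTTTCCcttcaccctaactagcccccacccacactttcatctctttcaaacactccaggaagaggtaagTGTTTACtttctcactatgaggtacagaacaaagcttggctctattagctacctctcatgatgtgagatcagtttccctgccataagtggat
CTCAAG, searched on both strands as letters bound by NKX2-1, occurred in the windows of *Sftpa1* (at -166 to -161 from the start) and *Sftpb* (at -100 to -95 and -15 to -10), which is 2 of 8 windows against 13.3% of 32851 promoters of the same length. TGTTTNC, for the FOXA factors, occurred in 3 of 8 windows against 17.8%, among them *Sftpb* as GCAAACA on the opposite strand (-88 to -82) and *Lamp3* at -162 to -156 and -92 to -86. TTGCNNAA, for C/EBP factors, occurred in 1 of 8 windows, that of *Slc34a2*, against 9.56%. CGGAAG, for ETS factors such as ETV5, occurred in 0 of 8 against 13.6%, and TATAAA, searched on the gene's strand, in 1 of 8 against 7.59%, in *Sftpa1* at -30 to -25. The searched letters did not overlap in these windows, and a match describes the sequence and not a bound site.

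The genes that supply lipid to surfactant, which include *Srebf1* of the transcription factor list, leaned the same way. Of 16, 13 had a fold change below 0 (51.0% of all tested genes), 9 had both mutants below both controls (19.5%), and 4 were lower (2.85%) and 0 higher (3.83%) at an unadjusted p below 0.05, with a median of -0.49 and none past the adjusted threshold. *Fasn*, fatty acid synthase, was at 4514 and 7887 in the controls and at 2524 and 3636 in the mutants, *Acaca*, which makes its malonyl-CoA, at 1005 and 2077 and then at 685 and 772. *Scd1*, the desaturase, had 3587 and 4537 and then 2685 and 3161, and *Gpam*, which starts glycerolipid synthesis, 2053 and 2586 and then 1533 and 1717. These are the 4 genes lower at an unadjusted p below 0.05 in limma, and in all 4 the groups did not overlap and control 2 was the highest library. Other genes of the list differed. Of the cholesterol transporters, *Abca1* was nearly level over the libraries, from 2392 to 2619, and *Abcg1* had its low value, 414, in control 2 against 881 to 1087 elsewhere. *Chpt1* (942 and 864, then 919 and 988) and *Elovl6* (202 and 95, then 169 and 156) had fold changes above 0. The groups also overlapped in *Pcyt1a* (991 and 1176, then 904 and 1009), *Agpat2* and *Dgat2*.

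Genes of surfactant protein processing, lamellar body trafficking and turnover showed little shift as a list, with a median of -0.07 over 14 genes, 2 lower at an unadjusted p below 0.05 (2.85% of all tested genes) and 4 with both mutants below both controls (19.5%), a count near that background. The 2 were *Atp11a*, a lipid flippase (3083 and 5232, then 2307 and 2603), and *Prdx6*, a peroxiredoxin with phospholipase activity (1049 and 1086, then 840 and 811). *Nedd4*, a ubiquitin ligase, ran from 3755 to 4093 and *Ap3b1*, a subunit of the AP-3 sorting complex, from 948 to 1118. In both the groups overlapped. The list was mixed, with 10 genes below 0 and 4 above. *Pla2g1b* had its lowest fold change, at 61 and 157 and then at 11 and 50, without overlap. *Pgc* was at 10 and 59 and then at 5 and 11, with overlap. *Csf2ra* (344 and 382, then 397 and 477) had both mutants above both controls. *Csf2rb* (751 and 499, then 750 and 793) was above 0 with overlap.

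The 16 other markers of type 2 cells, a list also drawn up with earlier results known, all had a fold change below 0 (51.0% of all tested genes), with a median of -0.91. In 11 of 16 both mutants lay below both controls (19.5%), 3 were lower at an unadjusted p below 0.05 (*Hc*, *Dram1* and *Muc1*, against 2.85%) and 0 higher, and none passed the adjusted threshold. Control 2 was the highest and mutant 1 the lowest library for 16 of 16 (33.2% and 23.9% of all tested genes). *Chil1*, a chitinase-like protein, was at 1194 and 1701 in the controls and at 207 and 1089 in the mutants, so that its low mean rested on mutant 1. *Lgi3*, whose gene lies 6603 bases from *Sftpc*, was at 1121 and 2421 and then at 436 and 1009, a log2 fold change of -1.31 beside the -0.28 of *Sftpc*.

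The 10 genes outside the list with the most similar profile were found by the root mean square distance, over the 4 libraries, between a gene's centred log2 values and the median centred profile of the surfactant and alveolar type 2 genes, among 12778 genes with a mean of at least 50. They were *Dram1*, *Hc*, *Hykk*, *Prrg3*, *Prps2*, *4732471J01Rik*, *Cpm*, *Pcx*, *Nudt12* and *Soat1*, at distances from 0.034 to 0.065 against a median of 0.476 over all candidates. *Hc*, the gene of complement C5, was at 3396 and 5000 and then at 1999 and 2998. *Cpm*, carboxypeptidase M, was at 2291 and 3167 and then at 1309 and 1891, and *Soat1*, which esterifies cholesterol, at 2050 and 2973 and then at 1267 and 1671. The surfactant and alveolar type 2 genes were themselves at 0.053 to 0.347 from their median, and the 4 points of a profile are too few to set these genes apart from others.

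Markers of the other cells that the sort could hold did not all move with these genes. Pan-epithelial markers followed them in part, since 10 of 12 had a fold change below 0 (51.0% of all tested genes). In only 1 of 12 did both mutants lie below both controls, against 19.5% of all tested genes. The summed level of these markers was 3955 and 7966 in the controls and 3158 and 4440 in the mutants, again highest in control 2. Among them *Epcam*, an epithelial adhesion molecule, was at 326 and 607 and then at 265 and 449. Alveolar type 1 markers were mixed, with 6 of 10 below 0 (51.0% of all tested genes) and summed levels from 6289 to 9508, the highest in control 2. Club cell markers had 7 of 9 above 0 and summed levels from 3976 in control 2 to 5563 in control 1.

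Ciliated cell markers went the other way from the surfactant genes, with both mutants above both controls in 10 of 10 (19.6% of all tested genes) and summed levels of 2738 and 3026 and then 5317 and 3835. Smooth muscle markers were above 0 in 10 of 10, where 51.0% of all tested genes were below 0. In limma, 4 of the 10 were higher at an unadjusted p below 0.05 (3.83% of all tested genes). Their sums were 5108 and 6747 in the controls and 7952 and 7612 in the mutants. Macrophage markers were above 0 in 10 of 10, with 2 higher at that level (3.83% of all tested genes). Their sums were 6678 and 4901 in the controls and 6935 and 8293 in the mutants. Sums of endothelial markers ran from 8840 to 10539 and those of fibroblast markers from 17281 to 20889, both lowest in control 2. None of these marker genes was at 0 in any library, and none passed the adjusted threshold. The share of each cell type in the sorted cells was not measured, and its part in the lower surfactant values of the mutants was not tested.

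**Figure D5:**
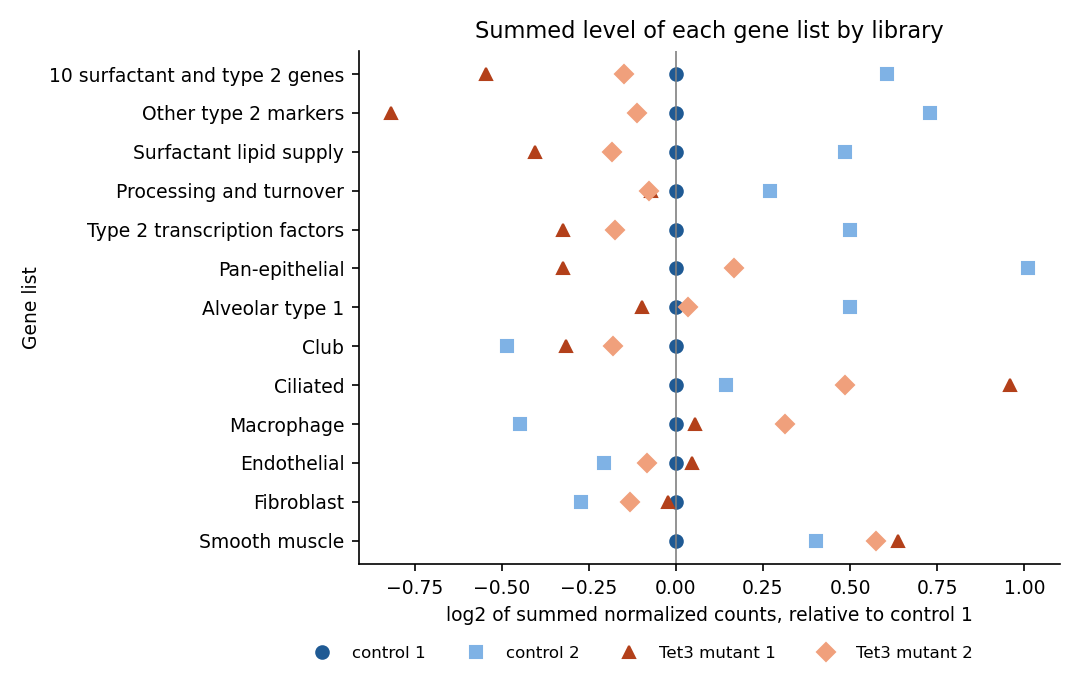
Summed normalized counts of each gene list in each library as a log2 ratio to control 1. The surfactant and alveolar type 2 genes and the other type 2 markers share one order of libraries, control 2 above control 1, mutant 2 and mutant 1. The lipid supply and transcription factor sums have this order as well. For the ciliated, smooth muscle and macrophage sums each mutant lies above each control.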

How the data were processed

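RNA from tdTomato-positive mouse lung cells was depleted of ribosomal RNA, made into stranded libraries and sequenced single-end. Per the labels and methods, the authors trimmed reads with Trimmomatic 0.36, aligned them with STAR 2.6.0c to mm10 (GRCm38), counted them over exons with featureCounts (Subread 1.6.0) without reads of several places or genes, and applied DESeq2 scaling. What was deposited is a score, namely normalized counts rounded by the authors to whole values, so no count model was run, although the study's own test was one.

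Levels were compared on log2(value + 1) with limma 3.58.1 in R 4.3.3 (lmFit, eBayes with a trend) in 16659 genes with a mean of at least 10, with Benjamini-Hochberg adjustment over all of them and a threshold of 0.05. Fold changes on this scale understate those of low genes. Groups came from the labelled genotype. Counting error between libraries was taken from the square root of estimated reads. The scaling factors, estimated from gaps and doublings among low values, were 0.961 and 1.052 in the controls and 1.09 and 0.9 in the mutants, which gives 7.29 M, 6.81 M, 6.32 M and 7.56 M estimated reads, and counting errors cover counting only. Exon lengths came from GENCODE vM21, which held 99.8% of the genes. The fit and the factor estimate were tested on simulated data. The named genes are the 10 genes, the genes of 12 lists on which a result turns, and the 10 genes of the nearest profile. The members and lists were chosen with earlier results of these data known. Some lists share genes, so their counts are not separate. *Srebf1* is in the transcription factor and lipid lists and *Fabp5* in the lipid and other type 2 marker lists. *Ctsh* is in the processing and other type 2 marker lists. Alternatives were other pseudocounts, filters and scalings, limma without the trend, a replicate block and each library left out.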

Additional observations from a re-analysis of the deposited data

How the results depend on the processing

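Under the 12 alternatives, 119 of 120 fold changes of the 10 genes kept their direction, and the exception was *Sftpc*, at 0.025 without control 2 and from -0.58 to 0.025 with any 1 library left out. None of the 10 passed the adjusted threshold under any alternative, with adjusted p from 0.153 to 0.998 in limma. The count of the 10 genes lower at an unadjusted p below 0.05, 5 as reported, was 3 with equal library totals, 0 for limma without the trend and 0 to 8 with 1 library left out. Over all genes, 1 gene (*Hal*, named after its value was seen) passed the adjusted threshold without the trend (adjusted p = 0.0307) and 0 otherwise (smallest adjusted p from 0.0753 to 0.998). With 1 library left out, where the lone library is assumed to vary like the others, the median of the 10 genes ran from -1.01 to -0.39 and their summed difference from -0.95 to -0.35. The processing and turnover list's median ran from -0.21 to 0.048 in the same way. Equal library totals moved the median of all genes from -0.01 to 0.04, and the genes at an unadjusted p below 0.05 from 638 higher and 474 lower to 796 higher and 355 lower. Same-numbered libraries are tied by no label, and the correlation of their deviations across genes, 0.13 over 2 pairs, does not settle whether the numbers pair them. The fit with the replicate block gave 9 of the 10 genes at an unadjusted p below 0.05 and 0 adjusted calls. The causes of these changes were not tested.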
